A study of Mus musculus with 2 samples.

Results

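Early T progenitors with myeloperoxidase transcripts (Mpo) were 700 cell barcodes among 6057 in a single-cell RNA count table of the embryonic mouse thymus. They were chosen by measured values. A barcode needed at least 500 genes, at most 10% mitochondrial unique molecular identifiers (UMIs), and at most 1 UMI in the sum of Krt8, Krt18 and Prss16, genes of thymic epithelium. It then needed a summed level of Spi1, Bcl11a, Lyl1, Mef2c and Cd34 of at least 350 CPM (UMIs per 1000000 UMIs), less than 400 CPM of Cd3g, fewer than 3 UMIs over the mast cell genes Gata2, Ms4a2 and Fcer1a, and at least 3 UMIs of Mpo. The 378 barcodes that met every step except the last, with 0, 1 or 2 Mpo UMIs, are called the other gated barcodes and are what the Mpo progenitors are set against. The Mpo progenitors were 64.9% of the 1078 gated barcodes (95% exact binomial interval 62.0 to 67.8%) and 12.7% of the 5515 barcodes that passed the gene and mitochondrial filters.

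The labels name samples of DN1 cells, the first stage of CD4 and CD8 double-negative thymocytes, sorted from embryonic thymus at E15.5 and at E19.5, with 1 library each. Both came from the 5x polychromILC strain, which carries reporter alleles at regulators of innate lymphoid development, Id2, Gata3, Rora and Bcl11b among them, so members and other gated barcodes share these alleles. The extraction label describes a lysis that yields nuclei, and whether nuclei or whole cells were loaded is not settled here. The barcodes carry 2 suffixes, set 1 with 2182 barcodes and set 2 with 3875, and no label ties a set to a stage. Everything is therefore 1 pooled sample with no replicate, no test between groups was possible, and the 95% intervals below cover counting error only. Values of set 1 and set 2 stand beside pooled ones without comparing stages. Members were 164 of 319 gated barcodes in set 1 (51.4%, 45.8 to 57.0%) and 536 of 759 in set 2 (70.6%, 67.2 to 73.8%).

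Early T progenitors are the youngest cells of the thymus. They arrive from blood with several fates still open, keep stem and progenitor regulators such as PU.1 (the product of Spi1) for a time, and switch on Tcf7, Gata3 and then Bcl11b under Notch signals as they commit to the T lineage. Myeloperoxidase is the heme enzyme of the azurophil (primary) granules of neutrophils, which also hold the serine proteases proteinase 3 (Prtn3), neutrophil elastase (Elane) and cathepsin G (Ctsg), and its transcript first appears in myeloid progenitors of the marrow.

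The start regions of these granule genes are shown because the results turn on how far their transcripts go with Mpo. Each is the RefSeq promoter of GRCm38.p6, from 250 bases before to 50 bases after the start, written 5′ to 3′, and capitals mark the ETS-type core GGAAGT. They lie at chr11:87793534-87793833 on the + strand for Mpo, at chr10:79879417-79879716 on the + strand for Prtn3, at chr10:79886062-79886361 on the + strand for Elane and at chr14:56102525-56102824 on the - strand for Ctsg.
Mpo: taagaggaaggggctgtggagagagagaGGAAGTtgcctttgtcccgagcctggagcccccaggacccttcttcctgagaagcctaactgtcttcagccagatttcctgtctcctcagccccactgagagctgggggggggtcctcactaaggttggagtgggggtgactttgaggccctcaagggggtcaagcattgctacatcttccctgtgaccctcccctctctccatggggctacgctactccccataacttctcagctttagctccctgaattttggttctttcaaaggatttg
Prtn3: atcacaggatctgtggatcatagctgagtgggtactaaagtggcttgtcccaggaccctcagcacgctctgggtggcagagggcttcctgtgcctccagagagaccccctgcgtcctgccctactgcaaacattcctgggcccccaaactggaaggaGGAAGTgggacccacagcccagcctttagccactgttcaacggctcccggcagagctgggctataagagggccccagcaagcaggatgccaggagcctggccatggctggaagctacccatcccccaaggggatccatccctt
Elane: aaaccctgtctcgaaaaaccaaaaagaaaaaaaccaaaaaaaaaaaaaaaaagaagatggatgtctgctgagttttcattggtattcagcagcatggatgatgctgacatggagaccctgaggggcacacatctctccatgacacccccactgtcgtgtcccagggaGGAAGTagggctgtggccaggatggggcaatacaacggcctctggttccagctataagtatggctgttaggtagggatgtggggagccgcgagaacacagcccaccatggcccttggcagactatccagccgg
Ctsg: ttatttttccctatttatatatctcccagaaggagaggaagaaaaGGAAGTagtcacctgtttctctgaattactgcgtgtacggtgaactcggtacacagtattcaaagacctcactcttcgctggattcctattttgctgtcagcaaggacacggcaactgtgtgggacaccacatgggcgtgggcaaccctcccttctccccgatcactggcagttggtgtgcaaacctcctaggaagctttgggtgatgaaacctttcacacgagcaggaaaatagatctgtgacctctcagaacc
The core GGAAGT begins at base 29 of the Mpo window, 158 of Prtn3, 168 of Elane and 46 of Ctsg, counted from the 5′ end. Both strands were searched, and 23.8% of 32851 RefSeq promoters of this length hold it. The longer GAGGAAGT, a PU.1-type motif that contains the core, is in the Mpo, Prtn3 and Elane windows and in 3.20% of promoters, and not in the Ctsg window. TTGCNNCAA, a C/EBP-type motif held by 2.08% of promoters, is in none of these windows. The motifs were picked after the sequences were seen, and a match is a description of letters.

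Most members held few Mpo UMIs. Pooled, it stood at 231 CPM (225 to 237) in members, where the rule fixed it, and at 34.5 CPM (30.9 to 38.5) in other gated barcodes. A member held 3 Mpo UMIs at the lowest, 6 at the median and 89 at the highest. The member level was 186 CPM in set 1 and 245 CPM in set 2. Icos-high barcodes passed the gene and mitochondrial filters, with at least 3 Icos UMIs and a progenitor sum under 350 CPM. They were meant as a background of innate lymphoid cells, which should lack granule genes, but T cells with Icos were not left out. In these barcodes Mpo was at 1.21 CPM (0.808 to 1.73) and 1.22% of 1640 barcodes had a UMI. Of the other gated barcodes 59.3% had a UMI, with a median depth of 24408 UMIs against 12680 in Icos-high barcodes. So Mpo UMIs were spread through the gate on both sides of the limit.

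**Figure D1:**
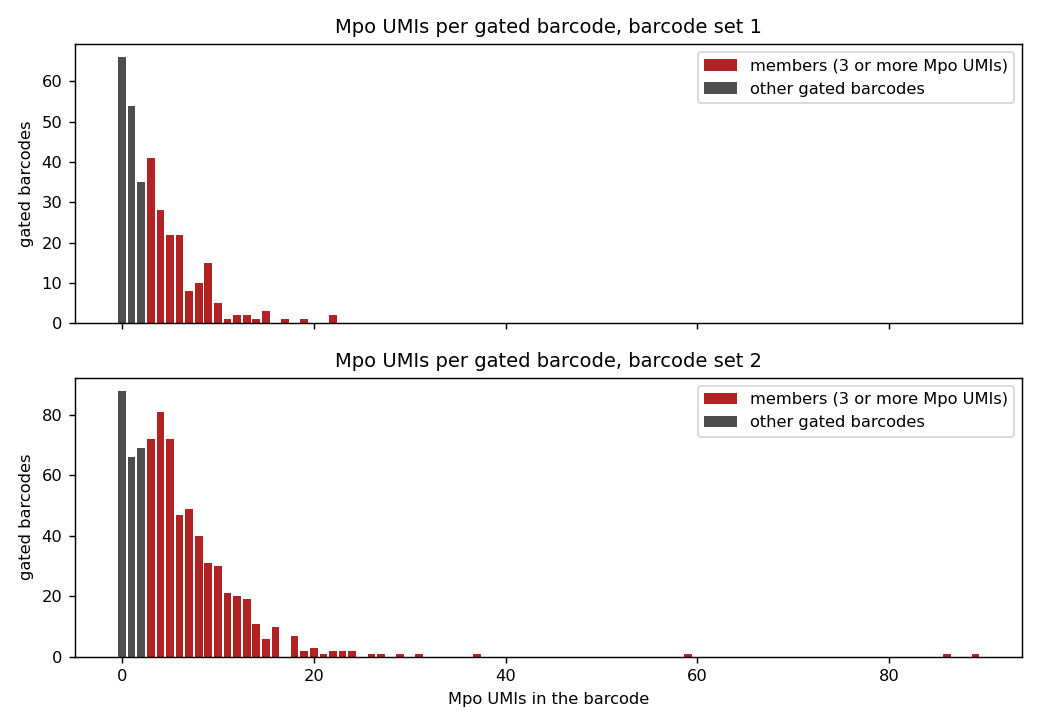
Number of gated barcodes (y axis) by Mpo UMIs in the barcode (x axis), for set 1 above and set 2 below, with members in red and other gated barcodes in grey. Counts fall off without a gap at the limit of 3 UMIs, and only 3 barcodes, all in set 2, held 50 or more.

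No gap separated members from the other gated barcodes. The 113 barcodes with 3 Mpo UMIs, just inside the limit, had 201 CPM of Tcf7, 144 CPM of Spi1, 160 CPM of Bcl11a and 94.8 CPM of Ly6d. The 104 barcodes with 2, just outside it, had 205 CPM of Tcf7, 159 CPM of Spi1, 168 CPM of Bcl11a and 120 CPM of Ly6d. A minimum in UMIs also favours deep barcodes. Members had a median of 31561 UMIs (6789 to 84073), against 24408 (763 to 113167) in other gated barcodes. The part of depth in the differences below was not tested as a cause. Values after thinning barcodes to 13928 UMIs are given for some of the genes named below and not for all. Of 860 barcodes with at least 3 Mpo UMIs, 147 of those that passed the quality filters fell outside the gate, 74 at the epithelial limit, 54 at the progenitor sum, 17 at Cd3g and 2 at the mast cell genes. The sets share 50 barcode sequences in all, 3 of them among members and 4 among other gated barcodes. Scrublet called 19 members (2.71%) and 15 other gated barcodes (3.97%) doublets, and they were kept. Its rate in set 1 was 0.466%, too low to show that it worked there.

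Of the markers given for the group, Spi1, Bcl11a and Zeb2 were at close levels in members and in other gated barcodes, and Ly6d was lower in members. Spi1 and Bcl11a were part of the gate, so their distance from other barcodes describes how the gate was chosen. Spi1, for PU.1, was at 153 CPM in members and 138 CPM in other gated barcodes (log2 ratio 0.15, 0.06 to 0.24), against 2.41 CPM in Icos-high barcodes. Bcl11a, a progenitor and B-lineage zinc finger factor, was at 156 and 158 CPM (log2 ratio -0.02), with log2 ratios of 0.24 in set 1 and -0.16 in set 2. Zeb2, a repressor used by myeloid and dendritic cells, was at 92.3 CPM in both groups. Ly6d, a surface marker of lymphoid-primed progenitors, was lower in members, at 80.7 CPM against 112 CPM (log2 ratio -0.47, -0.58 to -0.36). Within sets the log2 ratio of Ly6d was -1.44 in set 1, at 14.5 CPM against 39.3 CPM, and -0.67 in set 2, at 101 CPM against 161 CPM. After thinning, 27.7% of members (24.4 to 31.3%) and 34.4% of other gated barcodes (28.9 to 40.2%) had a Ly6d UMI, with overlapping intervals. Unthinned, the shares were 37% and 37.6%. The highest barcode held 146 Ly6d UMIs among members and 103 among other gated barcodes. Thinned barcodes with 0, 1, 2, 3 to 5 and 6 or more Mpo UMIs had Ly6d at 121, 88.0, 124, 69.5 and 88.3 CPM. These levels did not fall steadily with Mpo. By these markers the name myeloid-primed does not tell members from the rest of the gate, apart from the lower CPM of Ly6d.

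Across all 11206 genes with at least 20 UMIs, few differed much. Genes at least 2-fold higher in members were 86, or 0.767%, and genes at least 2-fold lower were 185, or 1.65%. The median log2 ratio was -0.03, with quartiles of -0.14 and 0.09. In set 1 90 of 9754 genes (0.923%) were at least 2-fold higher and 161 (1.65%) lower, and in set 2 94 of 10901 (0.862%) higher and 157 (1.44%) lower. Since the rule used this contrast, all ratios below describe it. Set 2 made up more of the members than of the other gated barcodes, so for a gene whose level differed between sets the pooled ratio can lie outside the ratios of both sets, as for Ly6d.

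Granule genes divided into those that went with Mpo and those that did not. Of 11 measured azurophil granule genes other than Mpo, 2, Ctsg and Ms4a3, were at least 2-fold higher in members and 0 were lower. Over all genes 0.767% were at least 2-fold higher and 1.65% lower. The median log2 ratio of the 11 genes was 0.17, beside -0.03 over all genes. Summed over genes, the log2 ratio was 0.13 (0.10 to 0.16), with 0.12 in set 1 and 0.14 in set 2. It was -0.065 when the CPM of each barcode was averaged in place of summing UMIs.

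Prtn3, the proteinase next to Elane on chromosome 10, was at 77.8 CPM in members and 45.5 CPM in other gated barcodes (log2 ratio 0.77, 0.62 to 0.93). The levels were 88.6 and 57.6 CPM in set 1 and 74.5 and 37.3 CPM in set 2. After thinning, 47.7% of 685 members (43.9 to 51.6%) and 39.6% of 285 other gated barcodes (33.9 to 45.6%) had a Prtn3 UMI, against 0.559% of 716 Icos-high barcodes. Unthinned, the shares were 68.0%, 46.3% and 0.610%. Prtn3 transcripts were thus found throughout the gate, with and without Mpo. Ctsg, for cathepsin G, was rarer and leaned more to members, at 12.1 CPM (278 UMIs) against 1.90 CPM (18 UMIs), or 2.67 as a log2 ratio (1.99 to 3.45), with 1.69 in set 1 and 2.58 in set 2. After thinning, 5.84% of members (4.20 to 7.87%) and 1.05% of other gated barcodes (0.218 to 3.05%) had a Ctsg UMI, against 0.140% of Icos-high barcodes.

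Ms4a3, a membrane protein gene of granulocyte and monocyte progenitors, had 23 UMIs in members and 2 in other gated barcodes (log2 ratio 2.25, 0.23 to 5.38), and 20 of the 23 lay in 1 member. The more abundant genes of the list differed less. Serpinb1a, an inhibitor of granule proteases, was at 311 CPM in members and 276 CPM in other gated barcodes. Nkg7, a granule membrane protein, was at 273 and 243 CPM, with a log2 ratio of -0.09 in set 1 and 0.33 in set 2. Srgn, the granule proteoglycan serglycin, was at 730 and 689 CPM, and Prss57, a neutrophil serine protease, at 41.0 and 43.1 CPM. Cd63, a granule and lysosome membrane protein, was lower in members, at 36.1 CPM against 51.7 CPM (log2 ratio -0.52, -0.68 to -0.35). Genes of late granules were rare in members. Of 7 with at least 20 UMIs 1 was at least 2-fold higher in members and 4 were lower, beside 0.767% and 1.65% of all genes. But 1 other gated barcode alone held 353 UMIs of S100a8, 512 of S100a9 and 148 of Camp. These 3 genes passed the UMI limit through it. Ngp, Lcn2, S100a9 and Chil3 had 0 UMIs in members, and Mmp8, Retnlg and Ly6g had 0 in both groups. Hp, for haptoglobin, was the gene that was higher, with 29 UMIs in 3 members against 2 UMIs in 1 other gated barcode (log2 ratio 2.58, 0.60 to 5.70). Ltf, for lactoferrin, had 47 UMIs in 42 members and 33 UMIs in 15 other gated barcodes.

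The 3 barcodes with the most Mpo were unlike the other 697 members. All were in set 2. The first held 89 UMIs of Mpo, 145 of Prtn3, 38 of Ctsg and 2 of Elane. The second held 86 of Mpo, 164 of Prtn3, 45 of Ctsg and 10 of Elane, and the third 59 of Mpo, 164 of Prtn3, 39 of Ctsg and 6 of Elane. The next 7 barcodes by Mpo had 24 to 37 Mpo UMIs but 0 to 5 of Prtn3 and 0 of Elane. These 3 barcodes carried 26.4% of the Prtn3 UMIs of members, 43.9% of the Ctsg UMIs and every Elane UMI.

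They also differed in regulators. Cebpa, the C/EBP alpha gene that drives granulocyte fate, had 7, 3 and 8 UMIs in them and 3 UMIs in the other 697 members together. Other gated barcodes had 7 Cebpa UMIs in 4 barcodes. The log2 ratio of the other 697 members over these was -2.48 (-5.07 to -0.35), on few UMIs. In the 3 barcodes Tcf7 had 0, 1 and 4 UMIs and Notch1 1, 1 and 7, and Bcl11b had 0 in each. Without them Prtn3 was at 57.8 CPM in members and 45.5 CPM in other gated barcodes, a log2 ratio of 0.34 (0.19 to 0.50), and Ctsg at 6.85 CPM against 1.90 CPM, or 1.85 as a log2 ratio (1.15 to 2.65). Ms4a3 had 21 UMIs in the 3 barcodes and 2 in the other 697 members, beside 2 in other gated barcodes, too few to be compared, so without the 3 barcodes Ctsg was the 1 azurophil gene at least 2-fold higher. The levels of Elane, Cebpa and Ms4a3 in members thus rested on 3 barcodes, and those of Prtn3 and Ctsg in part.

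**Figure D2:**
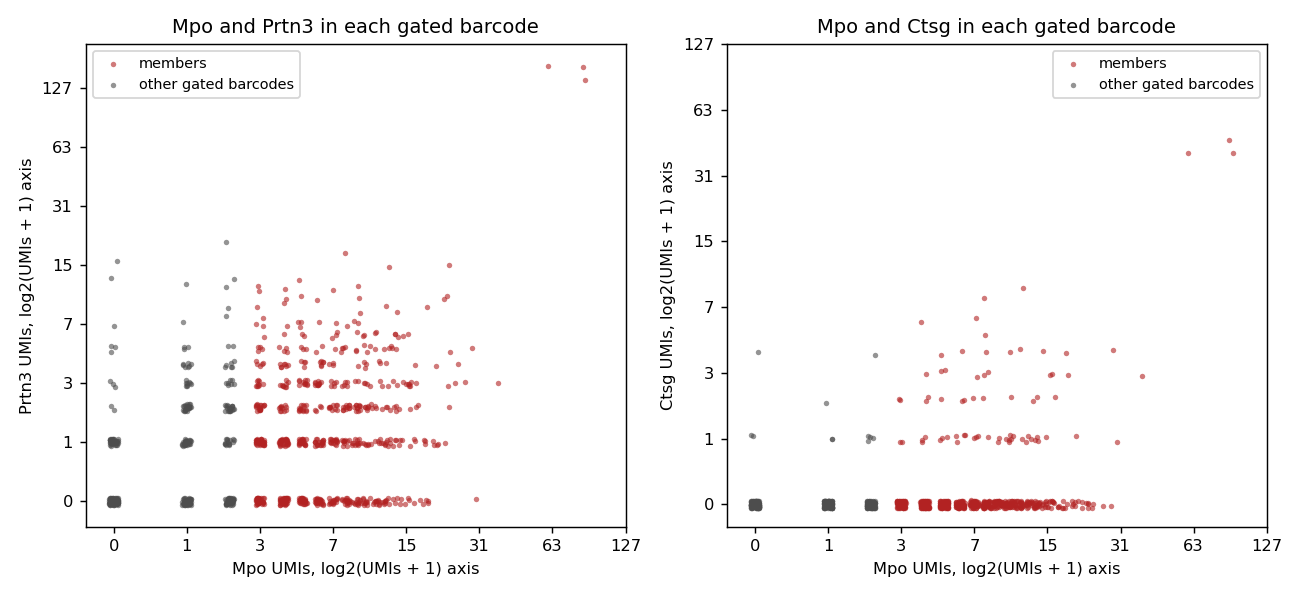
UMIs of Prtn3 (left) and Ctsg (right) against UMIs of Mpo in each gated barcode, on log2(UMIs + 1) axes with a small random offset, members in red and other gated barcodes in grey. The 3 barcodes with 59 to 89 Mpo UMIs stand alone at 145 to 164 Prtn3 UMIs and 38 to 45 Ctsg UMIs.

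Myeloid regulators as a list showed 0 of 14 genes at least 2-fold higher and 0 lower, with a median log2 ratio of 0.07. Cebpb was at 98.7 CPM in members and 85.2 CPM in other gated barcodes, and Runx1, a factor of blood stem cells, at 197 and 209 CPM. Irf8, the factor of monocyte and dendritic fate, was at 9.70 and 8.63 CPM (log2 ratio 0.17, -0.20 to 0.55). Without the 3 barcodes of most Mpo, Irf8 was at 8.21 CPM in members (log2 ratio -0.07, -0.46 to 0.32). Growth factor receptors were also alike in level. Kit, the stem cell factor receptor, was at 86.4 and 91.5 CPM, and Csf2ra at 15.4 and 15.6 CPM. Flt3 was at 14.2 and 11.5 CPM (log2 ratio 0.31, -0.01 to 0.64). Csf3r, the receptor for granulocyte colony-stimulating factor, had 30 and 5 UMIs, and its log2 ratio of 1.31 had an interval from -0.07 to 3.03.

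Pooled, stem and progenitor genes were a little higher in members, 17 of 23 above 0, with 0 at least 2-fold higher or lower and a median log2 ratio of 0.14. Over all genes the pooled median was -0.03, with an upper quartile of 0.09. Within sets the list median was 0.13 in set 1 and 0.04 in set 2, beside -0.01 and -0.03 over all genes. Summed over the list, the log2 ratio was 0.11 pooled, 0.09 in set 1 and 0.07 in set 2. Cd34, a sialomucin of blood progenitors that was part of the gate, was at 160 CPM in members and 125 CPM in other gated barcodes (log2 ratio 0.35, 0.26 to 0.45), with 0.12 in set 1 and 0.38 in set 2. Egfl7, a secreted protein made by endothelium and early blood progenitors, was at 124 and 88.9 CPM (log2 ratio 0.48, 0.37 to 0.59), with 0.35 in set 1 and 0.41 in set 2. Cd48, a signalling lymphocyte activation family receptor, was at 255 and 204 CPM. Sox4, at 662 and 627 CPM, and Myb, at 266 and 290 CPM, were close. Beyond Mpo and Prtn3, the genes of at least 50 CPM with the highest pooled ratios and a ratio above 0 in both sets included Rtp4 (71.9 and 50.6 CPM), Lax1 (50.1 and 35.9 CPM), Nusap1 of the mitotic spindle (82.4 and 60.5 CPM), Ctla2a (444 and 339 CPM) and Klf2 (82.9 and 65.5 CPM). All of these had pooled log2 ratios of 0.51 or less. Within sets the log2 ratio of Rtp4 was 0.10 (-0.29 to 0.50) in set 1 and 0.32 in set 2, that of Lax1 0.20 (-0.12 to 0.53) and 0.52, and that of Klf2 0.11 (-0.15 to 0.36) and 0.31. The set 1 ratios of these 3 genes were thus within counting error of 0, while Nusap1 had 0.62 and 0.43 and Ctla2a 0.36 and 0.27.

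T-lineage genes were lower in members. Of 22 genes 17 had a ratio below 0, though only 2, Bcl11b and Thy1, were at least 2-fold lower and 0 were higher. Over all genes 1.65% were at least 2-fold lower and 0.767% higher. The median log2 ratio of the list was -0.26, beside -0.03 over all genes. The summed list was at 886 CPM in members and 1064 CPM in other gated barcodes (log2 ratio -0.26, -0.30 to -0.23), with -0.24 in set 1 and -0.28 in set 2. Over 19 alternatives this ratio lay between -0.34 and -0.19.

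Tcf7, for TCF-1, the first T-lineage factor induced by Notch, was at 156 CPM in members and 224 CPM in other gated barcodes (log2 ratio -0.52, -0.60 to -0.45). Set 1 had 176 and 245 CPM, and set 2 had 150 and 210 CPM. Gata3, needed for T specification, was at 24.4 and 42.5 CPM (log2 ratio -0.80, -0.99 to -0.62), with 30.2 and 53.7 CPM in set 1 and 22.6 and 35.0 CPM in set 2. Bcl11b, the commitment factor, was at 5.96 CPM in members and 20.8 CPM in other gated barcodes (log2 ratio -1.81, -2.13 to -1.49), with 4.29 and 21.4 CPM in set 1 and 6.47 and 20.5 CPM in set 2. Thy1 was at 5.92 and 17.3 CPM. Il2ra, whose product CD25 is absent by definition from the surface of DN1 cells, was at 57.8 and 91.6 CPM, with log2 ratios of -0.28 in set 1 and -0.84 in set 2. These levels were low beside those of Icos-high barcodes for Gata3 (178 CPM) and Bcl11b (155 CPM), and not for Tcf7 (69.6 CPM).

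After thinning, 74.7% of members and 80.7% of other gated barcodes had a Tcf7 UMI, 27.3% and 39.3% a Gata3 UMI, and 4.23% and 11.2% a Bcl11b UMI. Unthinned, the shares were 87.4% and 78.0% for Tcf7, 48.3% and 46.0% for Gata3, and 6.43% and 14.3% for Bcl11b. For Il2ra the thinned shares were 33.4% of members (29.9 to 37.1%) and 40.7% of other gated barcodes (34.9 to 46.7%), with overlapping intervals. Its unthinned shares were 45.3% and 44.2%. The unthinned shares of Tcf7, Gata3 and Il2ra go against the CPM, and members were the deeper barcodes. Not all T-lineage genes were lower. Cd27 was at 156 and 132 CPM, the kinase Fyn at 40.5 and 33.7 CPM, and Cd44, a marker of the DN1 stage, at 46.4 and 42.6 CPM.

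The Notch pathway as a whole did not separate the groups. Of 18 genes 0 were at least 2-fold higher or lower, and the median log2 ratio was -0.05. The receptor Notch1 was at 141 CPM in members and 142 CPM in other gated barcodes, and the target Hes1 at 109 and 100 CPM. Dtx1, another target, was at 11.7 and 19.9 CPM, and its log2 ratio was -0.10 in set 1 and -0.97 in set 2.

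**Figure D3:**
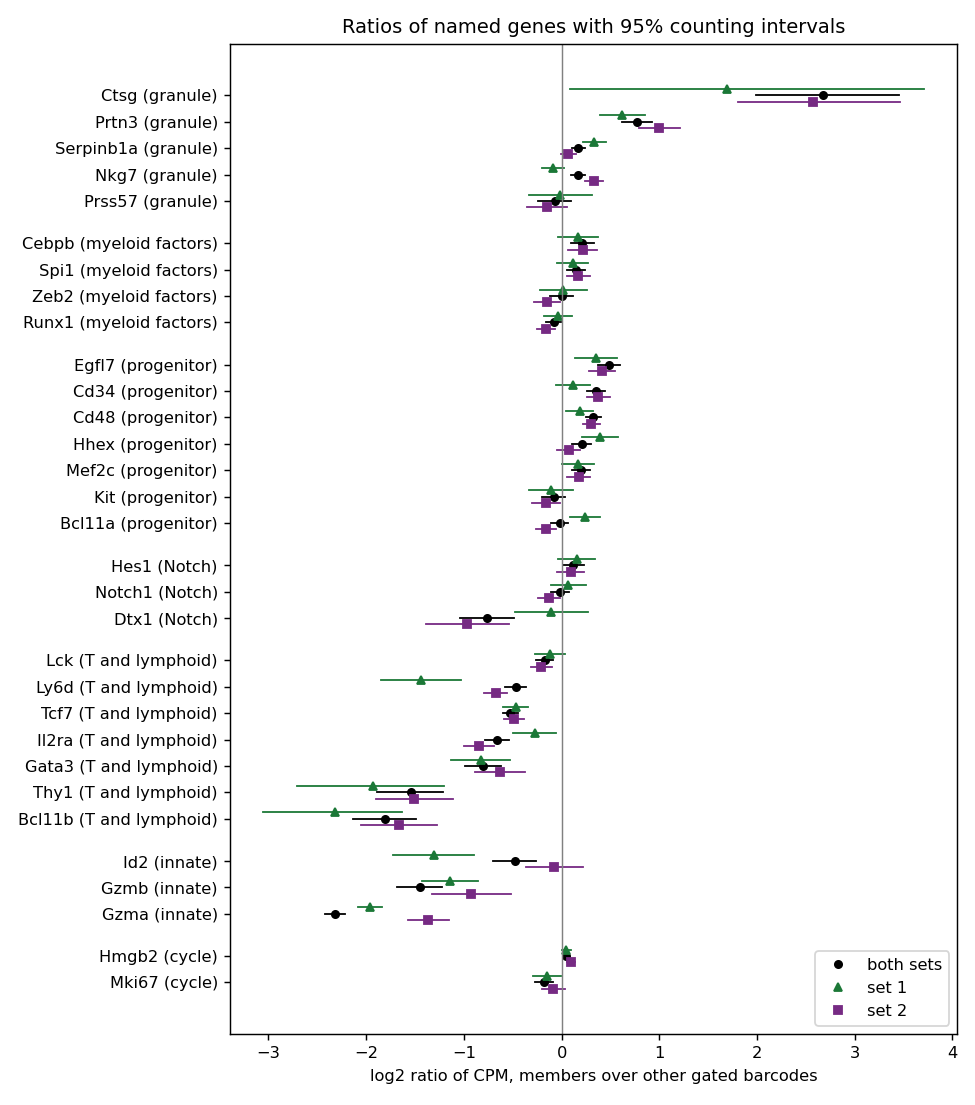
Log2 ratio of CPM, members over other gated barcodes (x axis), for named genes grouped by role (y axis), with both sets in black, set 1 in green and set 2 in purple, and bars for 95% counting intervals. Ctsg and Prtn3 lie to the right, Tcf7, Gata3, Thy1 and Bcl11b to the left in both sets, and Spi1, Zeb2 and Notch1 lie near 0.

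Before thinning, pooled Tcf7, Gata3 and Bcl11b were lower where a barcode held more Mpo, in classes whose depth also rose. Over barcodes with 0, 1, 2, 3 to 9, 10 to 49 and 50 or more Mpo UMIs (154, 120, 104, 538, 159 and 3 barcodes), Tcf7 was at 246, 219, 205, 166, 131 and 24.6 CPM. Gata3 over the same classes was at 50.8, 43.8, 32.2, 25.9, 20.6 and 4.92 CPM, and Bcl11b at 30.2, 21.9, 9.52, 6.86, 3.57 and 0 CPM. Pooled, Cd34 ran the other way from 1 UMI on, at 127, 112, 137, 154, 173 and 246 CPM. Ctsg was at 1.79, 1.29, 2.63, 5.38, 11.1 and 600 CPM, and Prtn3 at 29.9, 52.8, 55.2, 56.3, 61.9 and 2327 CPM. Pooled, Prtn3 was therefore nearly level from 1 to 49 Mpo UMIs, while over those classes it was at 82.6, 57.3, 86.0 and 107 CPM in set 1 and 31.8, 54.1, 44.8 and 56.2 CPM in set 2. Within sets, over the classes up to 49 UMIs, Gata3 was lower at each step, at 59.0, 54.5, 44.7, 30.8 and 26.0 CPM in set 1 and 43.9, 36.2, 25.8, 24.02 and 19.9 CPM in set 2. Tcf7 was lowest in the class of 10 to 49 UMIs but not lower at each step, at 252, 266, 208, 177 and 173 CPM in set 1 and 241, 187, 203, 162 and 126 CPM in set 2. Cd34 in set 1 was at 125, 99.7, 126, 128 and 118 CPM over these classes, and Ctsg at 0.655, 1.56, 0.971, 3.61 and 1.53 CPM. In set 2 Cd34 was at 129, 120, 143, 164 and 180 CPM, and Ctsg at 2.75, 1.10, 3.47, 6.07 and 12.2 CPM. Both genes thus rose at each step from 1 UMI on in set 2 and not in set 1. Ctsg counts were small, with 2 and 7 UMIs in the set 2 classes of 1 and 2 Mpo UMIs. In set 1 the class of 10 to 49 had 18 barcodes and 1 Ctsg UMI (0.0388 to 8.53 CPM). That is too few to show that a rise was absent.

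Depth moved with these classes, with medians of 18357.5, 24649, 28593.5, 30746.5, 34529 and 68655 UMIs. Thinned to 1 depth, barcodes with 0, 1, 2, 3 to 5 and 6 or more Mpo UMIs had 211, 204, 177, 179 and 147 CPM of Tcf7, and 123, 143, 159, 160 and 180 CPM of Cd34. Bcl11b then had 22.5, 5.28, 4.87, 4.33 and 5.24 CPM, high where no Mpo UMI was drawn and level elsewhere. Gata3 had 44.6, 32.4, 28.8, 24.2 and 26.9 CPM. The steps between neighbouring thinned classes of Tcf7 and Cd34 were mostly within their counting intervals.

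**Figure D4:**
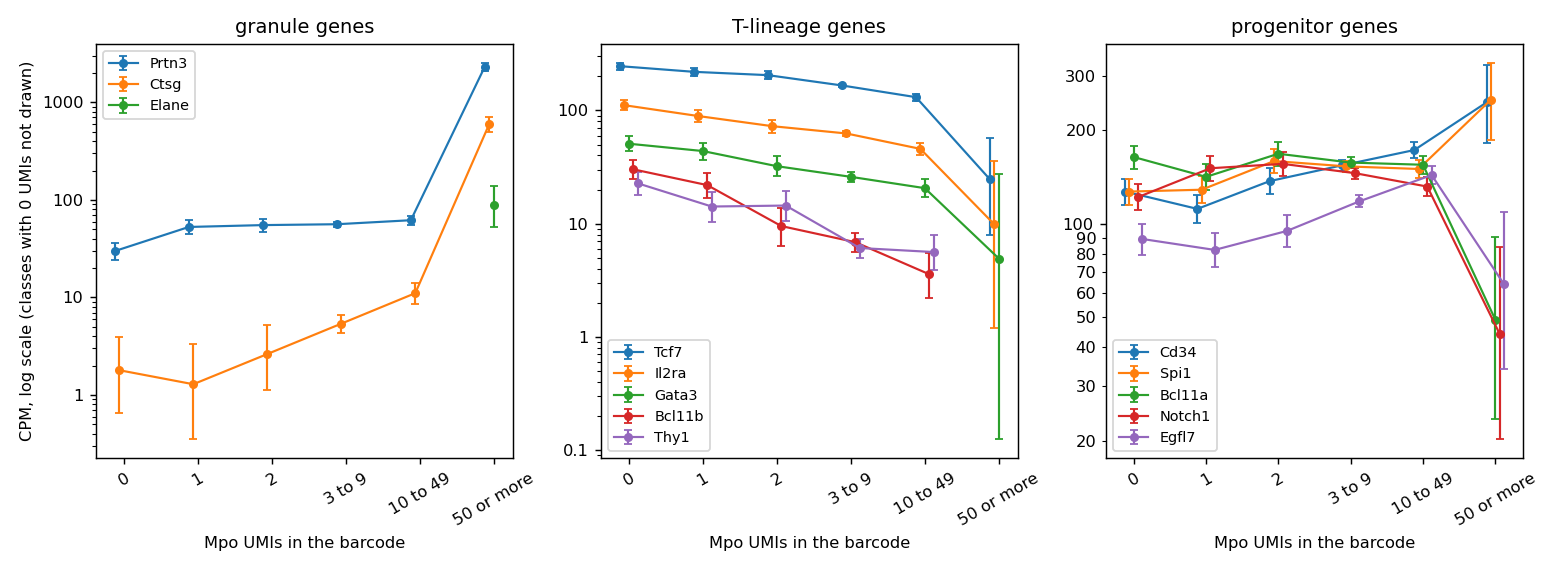
CPM on a log axis (y) by class of Mpo UMIs in the barcode (x) for granule, T-lineage and progenitor genes, with 95% Poisson intervals as bars. In these pooled, unthinned classes, whose median depth rises with Mpo, Tcf7, Gata3 and Bcl11b lie lower at each step. Prtn3 and Ctsg stand far higher in the class of 3 barcodes with 50 or more.

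Seen from Tcf7, the relation was not a simple exchange. The gated barcodes of each set were cut into 3 equal parts by their Tcf7 level. Members made up 66.9% of the lowest part (61.8 to 71.8%), 71.6% of the middle part (66.6 to 76.2%) and 56.3% of the highest part (51.0 to 61.5%). Median depths were 31206.5, 30976 and 26252 UMIs. The shares were 57.9, 56.6 and 39.6% in set 1 and 70.8, 77.9 and 63.2% in set 2. The middle part was thus highest in set 2 and not in set 1. Cd34 was at 209 CPM in the lowest part and 141 CPM in the middle part, and lower again in the highest. From the lowest to the highest part Mpo was at 199, 171 and 148 CPM and Bcl11b at 2.63, 7.95 and 21.5 CPM. Spi1 was at 153, 142 and 152 CPM. Many barcodes rich in Tcf7 were thus still members.

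Barcodes rich in a set of 18 genes of other lineages were found among the other gated barcodes and not among members. That set did not pick out the 3 members rich in Prtn3, Ctsg and Elane, or the member with 117 Hbb-y UMIs. The 18 genes, of mast, B, dendritic, neutrophil and erythroid cells, were chosen after their values were seen. At least 5 UMIs over these genes were found in 0 of 700 members and in 23 of 378 other gated barcodes (6.08%). The counts therefore describe the barcodes and are no test of members. Mast cell proteases were the extreme case. Cma1 had 8 UMIs in members and 928 in other gated barcodes, where 12 barcodes held them all, and Mcpt4 had 3 and 817. The major histocompatibility gene Cd74 had 20 and 375, and the B-cell receptor gene Cd79a 11 and 73. Counts over these lists only describe the barcodes, since several genes, Mcpt4 and Cma1 among them, reached 20 UMIs through the other gated barcodes and so had to be lower in members. Of 8 mast cell and basophil genes 1, Mcpt8 at 26 and 5 UMIs, was at least 2-fold higher in members and 5 were lower, with Ms4a2 and Fcer1a, which the gate used, at 0 in members. The summed mast cell level ran from 0 to 1915 CPM over members and from 0 to 156774 CPM over other gated barcodes. Of 10 B-lineage genes 3 were at least 2-fold lower and Pax5 was at 0 in members, and of 19 monocyte, macrophage and dendritic genes 1 was higher and 4 lower, with C1qb and Cd14 at 0. Of 8 erythroid and megakaryocyte genes 4 were lower. Over all genes 0.767% were at least 2-fold higher in members and 1.65% at least 2-fold lower.

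Removing those 23 barcodes left 87 genes at least 2-fold higher and 117 lower. Gata3 then had a log2 ratio of -0.82, Bcl11b -1.84 and Tcf7 -0.55, so the T-lineage differences were as large without them. Cpa3, the mast cell carboxypeptidase, is also made by early progenitors. It was at 186 CPM in members and 291 CPM in other gated barcodes (log2 ratio -0.65), and at -0.54 without those 23 barcodes. After thinning, 65.5% of members (61.9 to 69.1%) and 71.9% of other gated barcodes (66.3 to 77.1%) had a Cpa3 UMI. Unthinned, the shares were 77.6% and 70.6%.

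Innate lymphoid genes were lower in members. Of the 14 with at least 20 UMIs 0 had a ratio above 0 and 6 were at least 2-fold lower, with a median log2 ratio of -0.86. Over all genes 1.65% were at least 2-fold lower and the median was -0.03. Summed over the list, the log2 ratio was -1.77 in set 1 and -0.67 in set 2. Gzma, the granzyme of natural killer cells, was at 51.2 CPM in members and 256 CPM in other gated barcodes (log2 ratio -2.32, -2.42 to -2.22), with 139 and 541 CPM in set 1 (log2 ratio -1.96) and 24.3 and 62.6 CPM in set 2 (-1.36). Of the 2429 Gzma UMIs of other gated barcodes, 31.1% lay in 3 barcodes and 372 in 1. After thinning, 14.5% of members and 31.2% of other gated barcodes had a Gzma UMI. Gzmb was at 13.3 and 36.4 CPM. Id2, the repressor that marks innate lymphoid fate, was at 20.4 and 28.5 CPM, with log2 ratios of -1.31 in set 1 and -0.08 in set 2. Gzma was at 1149 CPM outside the gate, and the part of free RNA in these levels was not tested.

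**Figure D5:**
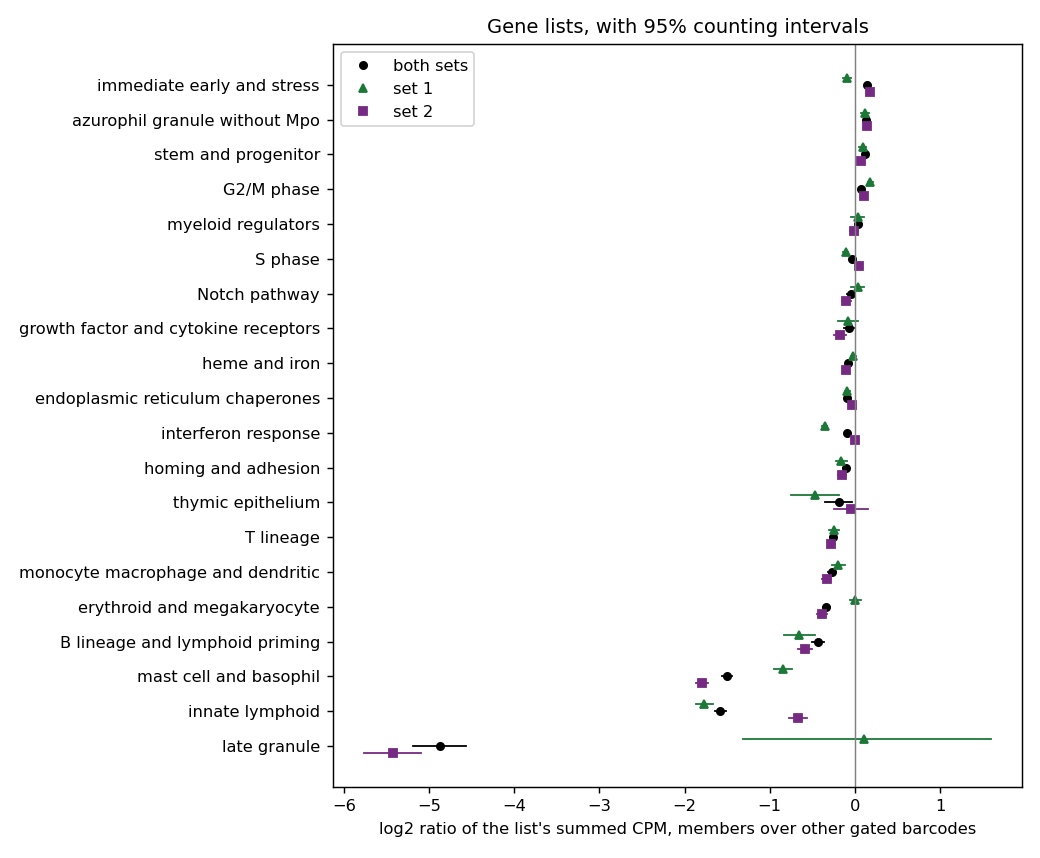
Log2 ratio of the summed CPM of each gene list, members over other gated barcodes (x axis), with both sets in black, set 1 in green and set 2 in purple and 95% counting intervals. Azurophil granule and progenitor lists lie just above 0, the T-lineage list lies near -0.26, and mast cell, innate lymphoid and late granule lists lie far lower in the pooled sums.

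Cell cycle genes differed by less than 2-fold. Of 30 S phase genes and 32 G2/M genes 0 were at least 2-fold higher or lower, with medians of -0.04 and 0.11, and 11 of the S phase and 22 of the G2/M genes were above 0. Summed over G2/M genes, the log2 ratio was 0.07, and -0.22 when members were chosen by at least 100 CPM of Mpo in place of 3 UMIs. Mki67, a marker of cycling cells, was at 136 CPM in members and 154 CPM in other gated barcodes (log2 ratio -0.18, -0.27 to -0.09). Thinned to 1 depth, barcodes with 0, 1, 2, 3 to 5 and 6 or more Mpo UMIs had 149, 126, 121, 104 and 102 CPM of Mki67, lower where more Mpo was drawn. Hmgb2, a chromatin protein of cycling cells, was then at 1464, 1562, 1333, 1304 and 1209 CPM. Unthinned, the classes were 0, 1, 2, 3 to 9, 10 to 49 and 50 or more Mpo UMIs. Over these Mki67 was at 180, 144, 135, 131, 148 and 182 CPM, and Hmgb2 at 1527, 1451, 1440, 1522, 1526 and 1845 CPM. The fall with Mpo was thus not steady without thinning. Single genes and the G2/M sum thus went different ways. Endoplasmic reticulum chaperones (17 genes), heme and iron genes (14) and immediate early genes (14) had 0 past 2-fold, with medians of -0.11, -0.14 and 0.11. Of 13 homing and adhesion genes 1, Ccr7, was at least 2-fold lower, at 24 and 20 UMIs, beside 1.65% of all genes. Itga4 was at 344 and 414 CPM. Of 18 interferon-response genes 1 was higher, Ifit3, beside 0.767% of all genes. The median of that list was 0.21 while its sum had a log2 ratio of -0.10, and Ifitm1 was at 734 and 968 CPM. The sets went different ways, with a median of -0.21 and a sum of -0.36 in set 1 and a median of 0.13 and a sum of -0.0041 in set 2.

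Among members the most uneven gene was not a granule gene. Members were thinned to 13928 UMIs and 3561 genes averaged 0.5 UMIs or more. For these, the median ratio of variance to mean was 1.09. It was 2.04 for Mpo, rank 171, and 6.71 for Prtn3, rank 17, while Spi1 was at 1.08. Hbb-bt led with 50.8, Gzma came next, and Ly6d was at 11.8. Isg15, an interferon-induced ubiquitin-like protein, was at 9.71. Members had at least 3 Mpo UMIs by the rule, so the value and rank of Mpo are in part set by it. For Prtn3, 26.4% of the UMIs of members lay in 3 barcodes.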

How the data were processed

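Per the labels, libraries of sorted DN1 cells used the 10x 3′ v3 kit. The authors deposited a table of UMI counts, as whole numbers, with genes in rows and barcodes in columns. The submitters' processing notes name Cell Ranger 3.0.2, STAR and the build GRCm38, and how cell barcodes were called is not given there. The table held 22032 gene rows for analysis, and 6 rows were left out. Members totalled 22989308 UMIs and other gated barcodes 9497883.

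UMIs were summed per group and scaled to CPM by the group's total. Levels have exact Poisson intervals, ratios conditional exact intervals and shares Clopper-Pearson intervals, all at 95% and for counting error only. Genes with at least 20 UMIs over both groups were compared, and a gene at 0 was set to 3 counts over the group. For shares, barcodes were thinned to 13928 UMIs, the 10th percentile of gated totals, which left out 15 members and 93 other gated barcodes. The functions were tested on simulated data. Scrublet was run per set in scanpy 1.11.5, and its calls were removed in 1 alternative. Of 19 alternatives, 17 were planned.

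The members and 21 gene lists were chosen with earlier results of these data known. Genes named are the group's markers, the 15 highest and 15 lowest ratios among genes of at least 50 CPM and on the same side of 0 in both sets, and up to 6 abundant members of each list. Genes beyond that rule, Gata3, Bcl11b, Thy1, Ctsg, Elane, Cebpa, Irf8, Flt3, Csf3r, Dtx1, Gzmb, Id2, Fyn, Runx1, Ccr7, Ms4a3, Mcpt8, Hmgb2, the late granule genes, the lineage markers and the genes of the closing section among them, were chosen after their values were seen. Python 3.11.15, numpy 2.4.6, scipy 1.17.1 and matplotlib 3.10.9 were used.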

Additional observations from a re-analysis of the deposited data

Results flagged for a closer look

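Mpo was also found in barcodes that no comparison above uses. In the 328 barcodes that passed the gene and mitochondrial filters but held more than 1 UMI of Krt8, Krt18 and Prss16, Mpo was at 86.9 CPM (80.3 to 93.9), against 1.21 CPM in Icos-high barcodes. Of them, 74 held at least 3 Mpo UMIs, with 201 CPM of Mpo, 148 CPM of Spi1 and 149 CPM of Tcf7. In the 542 barcodes that failed the quality filters Mpo was at 88.4 CPM (71.2 to 108), from 92 UMIs at a median depth of 1492 UMIs, and 13 of them held at least 3. The part of mixed barcodes or free RNA in these values was not tested.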

How the results depend on the processing

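With a minimum of 10 Mpo UMIs, 162 of the 700 members remained. Genes at least 2-fold higher, 86 as reported, were 147 and 57 with an Mpo minimum of 2 and 5 UMIs, 248 against barcodes without Mpo, 278 and 7 among genes with at least 1 and 100 UMIs, and 154 with the mean CPM of barcodes. Genes at least 2-fold lower, 185 as reported, were 324 against barcodes without Mpo, 448 and 42 with the gene limits, 427 with the mean CPM and 117 without barcodes of other lineages. The azurophil list was at 0.17 with 100 CPM of Mpo, 0.19 when weighted for depth, 0.10 without the tenth of members richest in Mpo, and -0.065 with the mean CPM. The T-lineage list was at -0.23 with 100 CPM, -0.34 against barcodes without Mpo and -0.19 with a progenitor sum of 500 CPM. The G2/M list was at 0.033, 0.045 and -0.22 with 2 UMIs, 5 UMIs and 100 CPM of Mpo, -0.026 against barcodes without Mpo, 0.15 with the progenitor sum of 500 CPM, 0.10 without Scrublet doublets, 0.10 under median-ratio scaling, 0.039 with the mean CPM, 0.18 in set 1 and 0.10 in set 2. Signs changed for the late granule list (0.86 with 1000 genes and 5% mitochondrial UMIs, 0.69 without doublets, 0.10 in set 1, 0.70 without other lineages), Klf1 (0.19 with 500 CPM, 0.027 without other lineages), Hp (-2.08 with the mean CPM), Cma1 (0.080 without other lineages), and Hbb-y (-4.88) and Ifit3 (-1.93) with 10 Mpo UMIs. The cause was not tested. No paired analysis was possible because the pooled sample has no replicates. Leaving out barcodes of other lineages and the 3 barcodes of most Mpo were added after seeing the data. The limits are the absence of replicates, the unknown stage of each set, the choice of members by a UMI minimum that follows depth, and low counts, as genes under 20 UMIs were not compared.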

Other observations

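Hbb-bt, an adult beta-globin gene, was abundant in part of the Mpo progenitors, and other globin genes were low in them. It was at 568 CPM (558 to 577) in members and 706 CPM in other gated barcodes, with a median of 1 UMI and a highest value of 326 in members. At least 10 UMIs were found in 165 members (23.6%), and 291 members had 0. Hbb-bs, the neighbouring beta-globin copy, was at 2.44 CPM and Hba-a1, an alpha-globin, at 0.522 CPM in members. Hbb-bt was likewise above Hbb-bs in other gated barcodes (706 and 2.53 CPM) and in barcodes outside the gate (145 and 33.8 CPM). The order was the reverse in the 542 barcodes that failed the quality filters, with 9029 CPM of Hbb-bt, 39025 CPM of Hbb-bs and 14574 CPM of Hba-a1. In Icos-high barcodes it differed by set, with 31.1 CPM of Hbb-bt and 0.173 CPM of Hbb-bs in set 1 and 4.22 and 108 CPM in set 2, where 2 barcodes held 10 or more Hbb-bs UMIs and the highest held 1027. Hbb-bt and Hbb-bs are near-identical copies, so how reads were divided between them is uncertain.

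Members with at least 10 Hbb-bt UMIs had 223 CPM of Tcf7, against 135 CPM in members with fewer, with 255 and 137 CPM in set 1 and 208 and 134 CPM in set 2. Cd34 was at 133 and 168 CPM and Flt3 at 8.22 and 16.1 CPM. Gata1, the erythroid factor, was at 0.365 and 0.400 CPM. The limit of 10 UMIs and these genes were chosen after their values were seen.

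The interferon-response genes Ifit3 and Rsad2 were concentrated in few members. Of 168 Ifit3 UMIs in members, 48.8% lay in 3 barcodes, and of 390 Rsad2 UMIs 29.5% did. Ifitm1 of the same list was widely spread, with a UMI in 691 members. Of 126 Hbb-y UMIs, an embryonic globin, 117 lay in 1 member.

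Among genes of no fixed list and below 50 CPM, Fam169b was at 4.39 CPM in members and 17.5 CPM in other gated barcodes (log2 ratio -1.99), with -1.73 in set 1 and -2.07 in set 2. Khdc1a was at 15.7 and 45.6 CPM, with log2 ratios of -0.80 in set 1 and -1.78 in set 2.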
